A study of Mus musculus with 8 samples.

Results

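A group of 10 genes that mark the walls of brain blood vessels was followed in injected mouse cortex. It comprised 5 endothelial genes (Cldn5, Pecam1, Flt1, Kdr and Cdh5) and 5 mural genes, which mark pericytes and vascular smooth muscle (Pdgfrb, Rgs5, Vtn, Acta2 and Tagln). These 10 of the 14884 genes in the deposited tables were chosen by name, and all 10 passed the low-count filter. In LNA218 hemispheres the primary somatosensory cortex was injected with a locked nucleic acid inhibitor of the microRNA miR-218-5p, and in NC hemispheres with a scrambled control. The animals were 4 adult male wild-type mice aged 3 months (mice 33 to 36), and each supplied 1 LNA218 and 1 NC library of polyadenylated RNA taken from the injection site 10 days later, with 17409900 to 25154700 estimated counts per library. Mouse 35 alone received the inhibitor on the left, and the other 3 received it on the right. The microRNA itself is not measured in polyadenylated RNA, so its inhibition could not be checked. The contralateral control was itself injected, and no uninjected cortex was analysed here. By its title the study concerns miR-218-5p in the scaling of synapses.

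Endothelial cells line the vessel and, in the brain, are sealed by tight junctions that form the blood-brain barrier. Pericytes sit on capillaries inside the basement membrane, and smooth muscle cells wrap arteries and arterioles and contract. Vascular endothelial growth factor (VEGF) acts on endothelial receptors, whereas endothelial platelet-derived growth factor B recruits mural cells through their receptor. In tissue RNA of this kind, fewer cells of a type and less RNA per cell cannot be told apart.

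The 3′ UTRs of the 10 genes were read for sites of the injected inhibitor's target. The mature microRNA is shown because its seed, bases 2 to 8 in capitals, defines the sites (RefSeq, GRCm38.p6).
mmu-miR-218-5p: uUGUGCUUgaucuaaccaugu
None of the 10 genes carried the matching 7-base site AAGCACA in the 3′ UTR of its transcript with the longest coding sequence (GENCODE M21, GRCm38), over UTRs of 77 bases in Vtn to 3473 bases in Rgs5. Such a site occurred in 14.2% of the 13686 tested genes with an annotated 3′ UTR. Among 104 other tested genes of the vessel wall and its signals, 8 carried one (7.69%). These were Angpt2, Apln, Des, Emcn, Fzd4, Pdgfra, Synpo2 and Wnt7a, named here for their sites. Shown next are the 4 of them with an 8-base site, AAGCACAA, with the 7-base core in capitals.
Apln: ggagagatagAAGCACAagaggggagta
Des: ataaagagacAAGCACAaacctgcatgg
Fzd4: atattctactAAGCACAactaaggacac
Pdgfra: tttacagagaAAGCACAattaaaacaaa
Apln, a peptide ligand of angiogenic endothelium, stood at -0.11 ± 0.10 (log2 fold change, LNA218 over NC, ± SE), with 0 of 4 animals higher, as all 4 were lower (4.05% of all genes were lower in 4 of 4). Fzd4, the endothelial Norrin and Wnt receptor, differed by 0.20 ± 0.13 and was higher in 4 of 4. Des, the muscle filament desmin, and Pdgfra, a receptor of fibroblasts and oligodendrocyte precursors, differed by 0.03 ± 0.32 and 0.02 ± 0.12. None of these 4 passed the test (edgeR quasi-likelihood, adjusted p = 0.999 for each), and a match describes letters, not a working site.

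No endothelial or mural gene passed between LNA218 and NC hemispheres. Of the 10, 8 had a log2 fold change above 0 and 2 below, against 47.2% of all 14506 tested genes above 0, and the median was 0.11 for the endothelial and 0.22 for the mural genes, against -0.0096 over all tested genes. Leaving out 1 animal moved these medians to between -0.055 (without mouse 34) and 0.19 (without mouse 36) for the endothelial genes, and to between 0.099 (without mouse 35) and 0.35 (without mouse 33) for the mural genes. In edgeR's quasi-likelihood test, blocked by animal and adjusted over all genes by Benjamini-Hochberg, 0 of 10 passed an adjusted p of 0.05, as did 0 of 14506 genes (0.0%). At an unadjusted p under 0.05 there was 1 of the 10, Acta2, against 1.7% of all genes (1.1% higher and 0.6% lower). DESeq2 called 13 genes and limma-voom 0, none of them among the 10. For every one of the 10 genes the LNA218 and NC libraries overlapped. LNA218 libraries lay wholly above NC in 0.731% of all genes and wholly below in 0.648%.

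**Figure D1:**
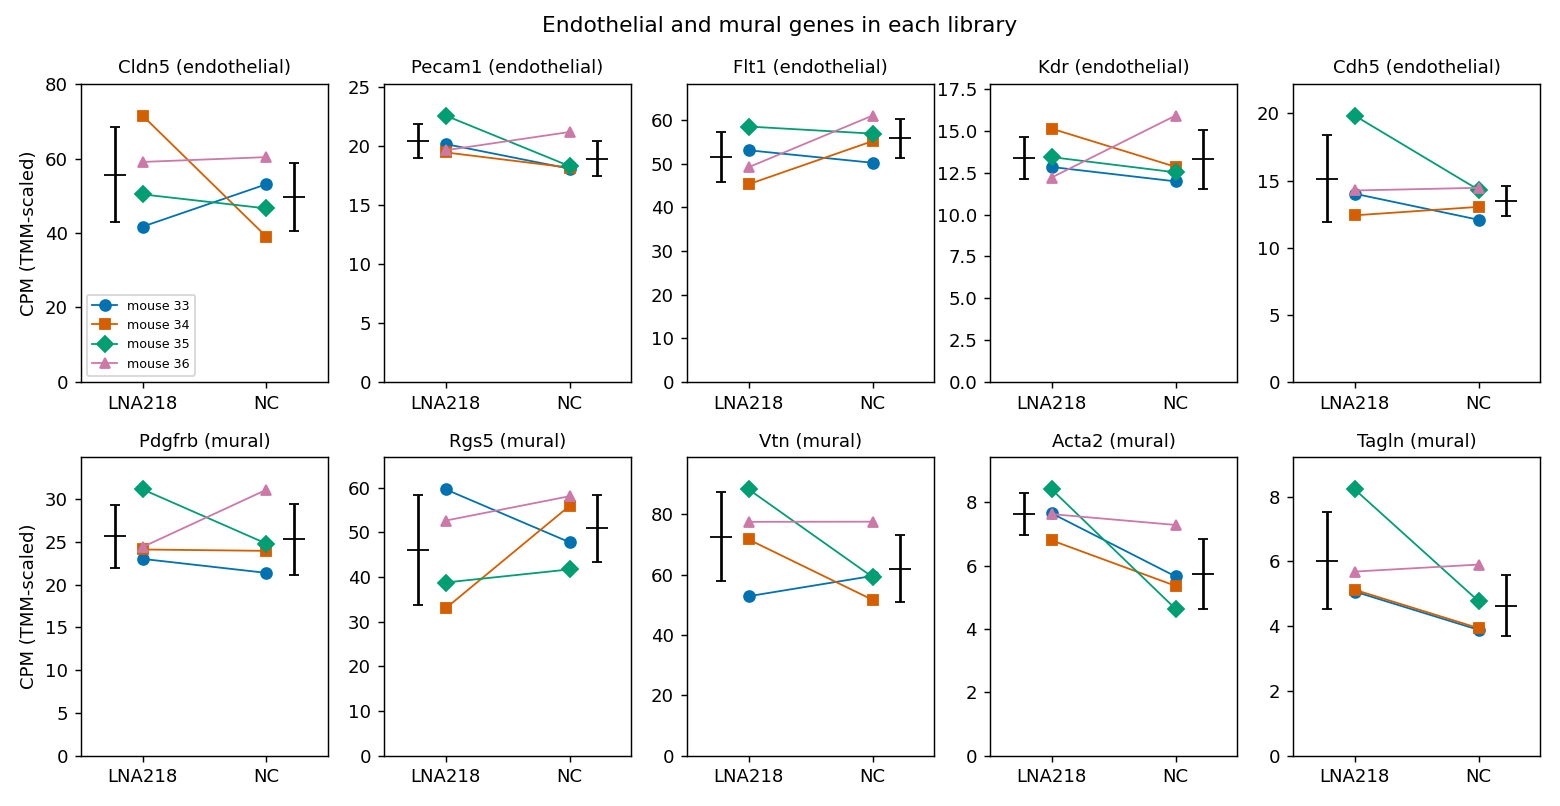
Level of the 10 genes in CPM (counts scaled to a common library total, with TMM factors) in each library, LNA218 left and NC right, with a line joining the hemispheres of each animal and black bars for the mean ± SD (n = 4). The axes start at 0; the groups overlap for every gene, and Acta2 alone is higher in LNA218 in all 4 animals.

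No junction gene differed by more than its spread between animals, and Cldn5 had the widest spread between animals of all 10 genes. Levels are in CPM, counts scaled to a common library total. Cldn5, the claudin that seals the endothelial barrier, had 41.7, 71.6, 50.4 and 59.1 CPM in the LNA218 libraries of mice 33 to 36, against 53.1, 38.99, 46.6 and 60.4 CPM in the NC libraries (in the same order of mice). Its highest and its lowest library both came from mouse 34, the LNA218 library being the high one, and the groups overlapped. The log2 fold change was 0.15 ± 0.19 (SE, adjusted p = 0.999, edgeR quasi-likelihood), with 2 animals higher and 2 lower. Without mouse 34 it turned to -0.083.

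Cdh5, the cadherin of endothelial adherens junctions, had 14.0, 12.4, 19.8 and 14.3 CPM in LNA218, against 12.1, 13.04, 14.3 and 14.5 CPM in NC. Only the LNA218 library of mouse 35 stood clear of the rest. The log2 fold change of Cdh5 was 0.15 ± 0.14 (SE), with 2 animals higher and 2 lower, and it was 0.040 without mouse 35. Pecam1, an adhesion molecule at contacts between endothelial cells, had 20.2, 19.5, 22.6 and 19.6 CPM in LNA218, against 18.1, 18.2, 18.3 and 21.2 CPM in NC, a log2 fold change of 0.11 ± 0.12 (SE). In 3 animals Pecam1 was higher in LNA218, and among the NC libraries that of mouse 36 was the high one. Without mouse 35 its log2 fold change was 0.049. Pecam1 was also the steadiest of the 10 genes, with a coefficient of variation of 8.07% over the 8 libraries, against 25.9% for Tagln.

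The VEGF receptors stayed near level. Flt1, the receptor that binds VEGF tightly and limits its signal, had 53.0, 45.3, 58.5 and 49.2 CPM in LNA218, against 50.2, 55.1, 56.9 and 61.0 CPM in NC. It was higher in mice 33 and 35 and lower in mice 34 and 36, with a log2 fold change of -0.12 ± 0.11 (SE). Kdr, the main signalling receptor for VEGF, had 12.8, 15.1, 13.4 and 12.2 CPM in LNA218, against 11.98, 12.9, 12.5 and 15.9 CPM in NC. Here 3 animals were slightly higher and mouse 36 lower, which left a log2 fold change of 0.02 ± 0.14 (SE). The sign of Kdr turned on leaving out mouse 33, 34 or 35 (-0.0090, -0.055 and -0.014). Both Flt1 and Kdr had an adjusted p of 0.999 (edgeR quasi-likelihood).

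The ligands and partner receptors of this system did not pass either. Of 18 tested genes of VEGF, angiopoietin and platelet-derived growth factor signalling, 11 were higher and 7 lower in LNA218, with a median log2 fold change of 0.060 and 0 at an unadjusted p under 0.05. Vegfa, the ligand made by neurons and astrocytes, averaged 44.0 ± 6.62 CPM in LNA218 and 48.9 ± 3.66 CPM in NC (SD, n = 4). Its log2 fold change was -0.16 ± 0.10 (SE), and 0 of 4 animals were higher. Tie1, an endothelial receptor of the angiopoietin system, differed by 0.22 ± 0.13, and Nrp1, a VEGF co-receptor, by -0.23 ± 0.19 (log2 ± SE).

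The 3 pericyte genes pointed different ways. Pdgfrb, the receptor through which mural cells are recruited, had 23.0, 24.1, 31.2 and 24.4 CPM in LNA218, against 21.4, 23.97, 24.8 and 31.1 CPM in NC. A single library in each group stood high, mouse 35 in LNA218 and mouse 36 in NC, and the log2 fold change was 0.02 ± 0.13 (SE), turning to -0.078 without mouse 35. Rgs5, a regulator of G-protein signalling used as a pericyte marker, had 59.6, 33.0, 38.8 and 52.6 CPM in LNA218, against 47.8, 55.9, 41.7 and 58.1 CPM in NC. It was lower in 3 of 4 animals, by most in mouse 34, and differed by -0.17 ± 0.17 (log2 ± SE). Without mouse 34 it stood at 0.029. Vtn, the matrix protein vitronectin, which brain pericytes secrete, had 52.9, 71.7, 88.3 and 77.5 CPM in LNA218, against 59.6, 51.7, 59.3 and 77.6 CPM in NC. Mice 34 and 35 were higher, mouse 33 was lower and mouse 36 was level, for a log2 fold change of 0.22 ± 0.14 (SE). It was 0.099 without mouse 35 and 0.35 without mouse 33.

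The contractile genes of smooth muscle had the highest fold changes of the 10. Acta2, smooth-muscle actin, had 7.66, 6.80, 8.42 and 7.63 CPM in LNA218, against 5.66, 5.37, 4.64 and 7.29 CPM in NC. It was higher in LNA218 in 4 of 4 animals, as were 4.58% of all genes, and only the NC library of mouse 36 reached into the LNA218 range. The log2 fold change was 0.43 ± 0.17 (SE), 1.34-fold, at an unadjusted p of 0.0381 and an adjusted p of 0.999 (edgeR quasi-likelihood), so it did not pass. Tagln, the actin-binding protein transgelin, had 5.07, 5.12, 8.22 and 5.68 CPM in LNA218, against 3.89, 3.94, 4.77 and 5.90 CPM in NC. Mice 33 to 35 were higher and mouse 36 was close to level, for a log2 fold change of 0.38 ± 0.18 (SE, adjusted p = 0.999, edgeR quasi-likelihood). For these 2 genes the mean difference exceeded the SD between animals, which it did not for the other 8. Without mouse 35 Acta2 stood at 0.28 and Tagln at 0.23. They were also the 2 lowest in counts, Tagln with 80.0 in the NC library of mouse 34, so counting error is largest for them.

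Contractile genes are known to be switched on through serum response factor, which binds the CArG box. The promoter of Acta2 is shown because its gene had the highest fold change, from 250 bases before to 50 after the start at chr19:34255324-34255623 (minus strand, RefSeq, GRCm38.p6), with CArG boxes in capitals, 1 of their 6 inner positions being free to be G or C.
Acta2: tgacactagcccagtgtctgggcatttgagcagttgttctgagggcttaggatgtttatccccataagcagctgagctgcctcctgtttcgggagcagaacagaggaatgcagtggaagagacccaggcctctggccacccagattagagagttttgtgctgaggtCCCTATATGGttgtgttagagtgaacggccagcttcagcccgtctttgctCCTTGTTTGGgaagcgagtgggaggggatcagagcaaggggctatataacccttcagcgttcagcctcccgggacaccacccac
It held 2 such boxes, beginning 84 and 34 bases before the annotated start, and none that met the box without a mismatch. These distances hold for that annotated start only, and its position was not tested. Of 32851 promoters of this length, 0.822% held 2 or more and 9.98% held at least 1. The box reads alike on both strands. Promoters of 6 of the 10 genes were available, and among the other 5 Kdr held 1 box and Cldn5, Flt1, Rgs5 and Vtn held none. The promoter of Tagln, the other contractile gene, was not available. A match is a description of the sequence and not of binding.

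Counts of Acta2 and Tagln could include reads of relatives or neighbours. Of the 31-base words of the Acta2 transcript, 1.3% also occur in the transcripts of the cytoplasmic actins Actb and Actg1, whose mean levels were 1218 and 1232 CPM. The Tagln transcript, 1595 bases long, shares 108 exon bases with Pcsk7 and 877 with Gm48529, both on the opposite strand, and use of strand in counting is not given in the sources used here.

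**Figure D2:**
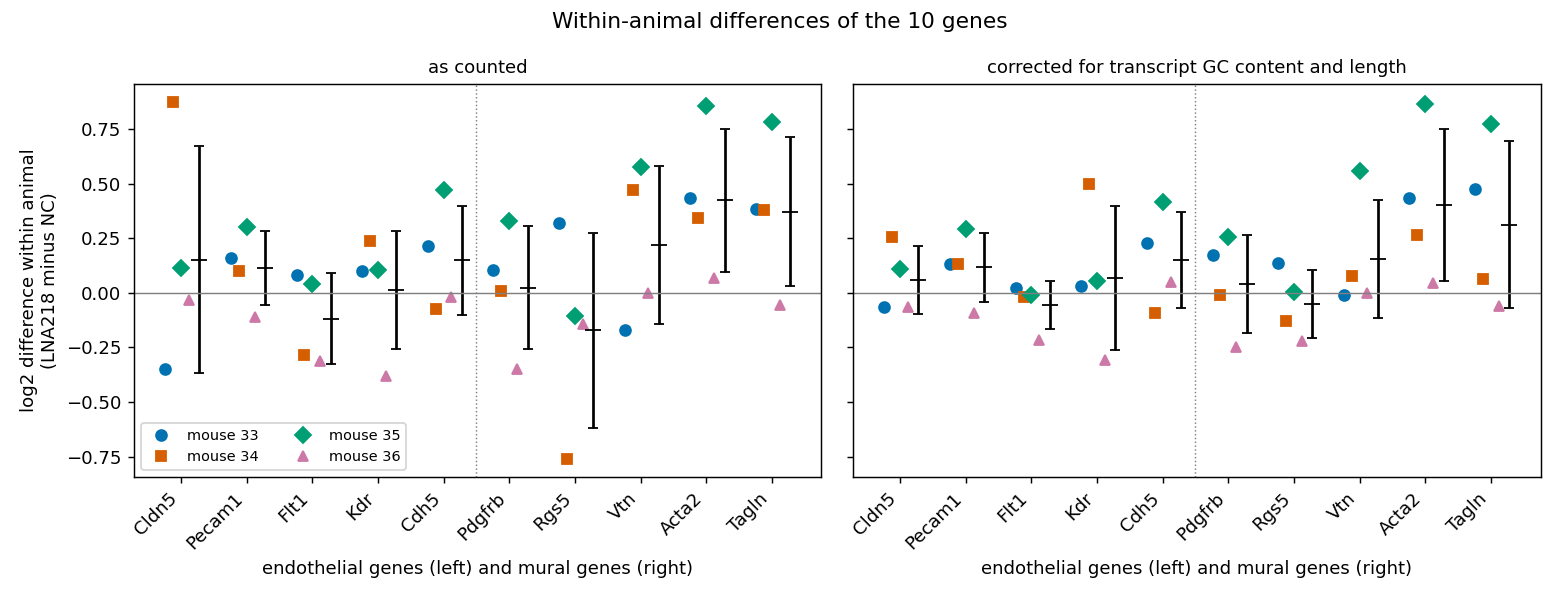
Within-animal log2 differences (LNA218 minus NC) of the 10 genes, endothelial left and mural right of the dotted line, as counted (left panel) and corrected for transcript GC content and length (right panel). Symbols are animals and black bars are the mean ± SD (n = 4); the SD of Cldn5 is 0.52 before and 0.15 after correction, and Acta2 is above 0 in all 4 animals in both panels.

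Endothelial and mural genes were then set against each other within each animal. The mean log2 difference over the 5 endothelial genes was 0.041, 0.17, 0.21 and -0.17 in mice 33 to 36, and over the 5 mural genes 0.21, 0.088, 0.49 and -0.096. Both classes were thus higher in LNA218 in mice 33 to 35 and lower in mouse 36. Their means were 0.062 ± 0.17 for the endothelial and 0.17 ± 0.25 for the mural genes (SD, n = 4). The endothelial minus mural difference was -0.17, 0.083, -0.28 and -0.074. Averaged, it came to -0.11 ± 0.15 (SD, n = 4) and was smaller than its spread between animals.

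Within the mural class the contractile pair had the larger mean difference. Acta2 and Tagln together differed by 0.41, 0.36, 0.82 and 0.0060 in mice 33 to 36 (mean 0.40, SD 0.33). Pdgfrb, Rgs5 and Vtn together differed by 0.084, -0.093, 0.27 and -0.16 (mean 0.023, SD 0.19). This split of the mural genes was made with their values known and is a description. The endothelial genes without Cldn5 averaged 0.039 ± 0.19.

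In mouse 36 the NC library was high. For all 10 genes it was the highest of the 4 NC libraries, and those of mice 33 to 35 were the highest for 0. Over all tested genes the NC libraries of mice 33 to 36 were the highest for 16.6%, 31.8%, 26.6% and 25.1%. The NC library of mouse 36 was also the highest for 26 of 55 further endothelial, pericyte and smooth muscle genes (47.3%). In LNA218 the library of mouse 35, the only one with the inhibitor on the left, was the highest for 7 of the 10 genes, and again for 26 of the 55 (47.3%). The LNA218 libraries of mice 33, 34 and 36 were the highest for 1, 2 and 0 of the 10, and over all genes those of mice 33 to 36 for 31.9%, 30.1%, 20.7% and 17.3%. These libraries were singled out after their values were seen. Taking mice 33 to 36 in order, 8, 7, 9 and 1 of the 10 genes were higher in LNA218. Leaving out mouse 36, the class means were 0.14 for endothelial and 0.26 for mural genes, without mouse 35 they were 0.013 and 0.068, and 0 of 10 genes passed in either case (edgeR quasi-likelihood).

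**Figure D3:**
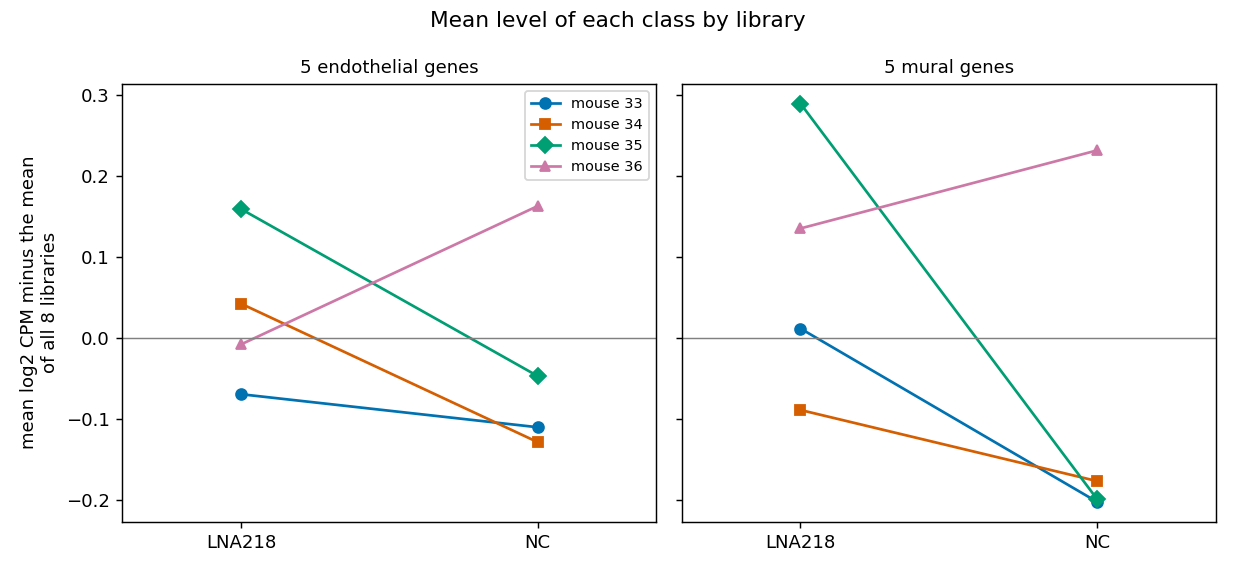
Mean log2 CPM of the 5 endothelial genes (left) and the 5 mural genes (right) in each library, relative to the mean of all 8 libraries, with LNA218 left and NC right in each panel and a line for each animal. The NC library of mouse 36 stands at 0.16 and 0.23, above the other 3 NC libraries in both panels.

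The spread between animals moved with the base composition of the transcripts, and over all genes also with their length. Cldn5 has the highest GC content of the 10 (60.5%) and the shortest transcript (1416 bases), and Rgs5 has the lowest GC content (41.1%). In mouse 34 these 2 genes had the highest and the lowest difference, 0.88 and -0.76, and in mouse 33 Cldn5 was the lowest at -0.35 while Rgs5 stood at 0.32. Over the 10 genes the rank correlation of difference and GC content was -0.539, 0.588, 0.358 and 0.309 in mice 33 to 36. Over 10278 well-expressed genes it was -0.618, 0.688, 0.231 and -0.211, points that share the same library pair. With transcript length the rank correlation over these genes was 0.345, -0.571, 0.123 and -0.278. The separate parts of GC content and length were not tested. For GC content, the opposite signs in mice 33 and 34 thus appeared in the vessel genes and over all genes alike. In mouse 36 the signs for GC content of the vessel genes and of all genes differed.

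A correction for GC content and length, which by construction removes such a trend over genes at large, narrowed the spread of 7 of the 10 genes. It widened the spread of Kdr, Acta2 and Tagln. Over the 10 genes the rank correlation of difference and GC content was then -0.297, 0.018, 0.261 and 0.321 in mice 33 to 36. The within-animal differences of Cldn5 became -0.064, 0.25, 0.11 and -0.067, with an SD of 0.15 in place of 0.52. Those of Rgs5 became 0.14, -0.13, 0.0047 and -0.22, with an SD of 0.16 in place of 0.45. Acta2 was higher in 4 of 4 animals, as were 6.49% of all genes after correction, and differed by 0.40 ± 0.15 (log2 ± SE), with an adjusted p of 0.945, and Tagln by 0.32 ± 0.17 (edgeR quasi-likelihood). After correction 0 of 14506 genes passed, and 4.49% had an unadjusted p under 0.05. By animal, the corrected differences of Tagln were 0.48, 0.063, 0.77 and -0.063. The corrected endothelial minus mural difference averaged -0.10 ± 0.18 (SD, n = 4).

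**Figure D4:**
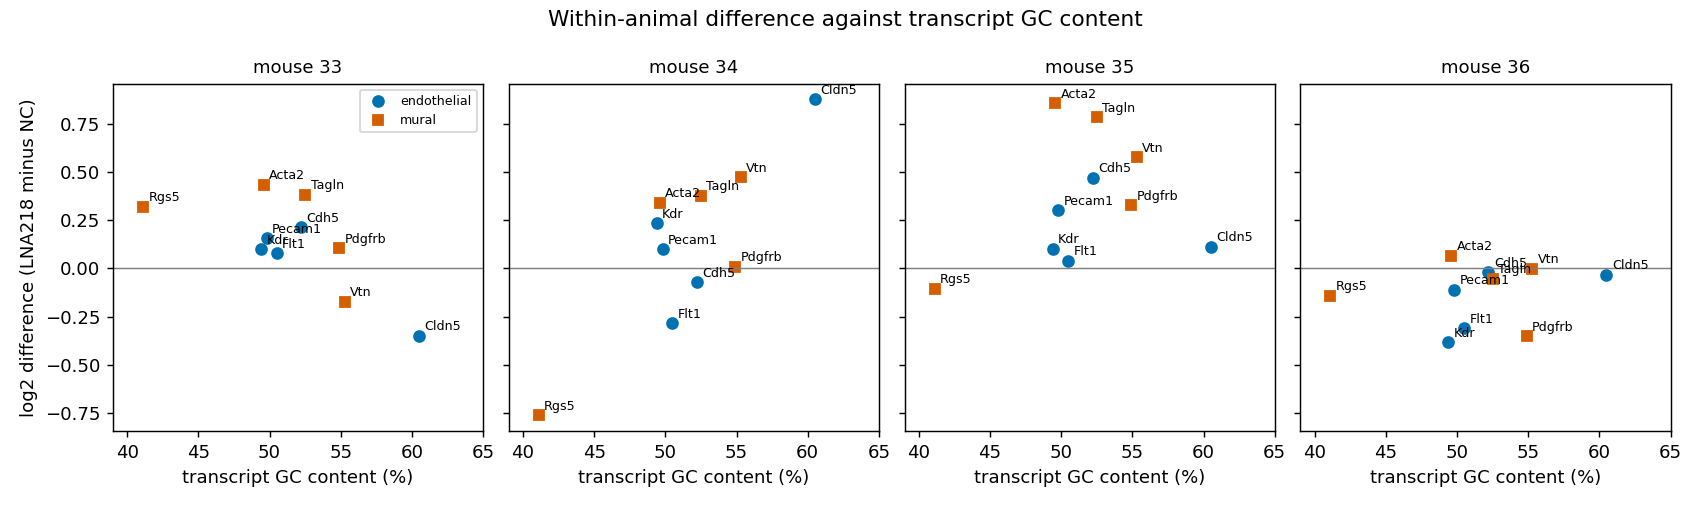
Within-animal log2 difference (LNA218 minus NC) of each gene against the GC content of its transcript (percent), a panel per animal, with endothelial genes as circles and mural genes as squares. Cldn5 (60.5%) lies below 0 in mouse 33 and highest in mouse 34, and Rgs5 (41.1%) lies above 0 in mouse 33 and lowest in mouse 34.

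Levels were compared between genes per kilobase of transcript. In LNA218 cortex Vtn led at 41.6 ± 8.51 CPM per kilobase, followed by Cldn5 at 39.3 ± 8.99, Rgs5 at 11.2 ± 2.995, Flt1 at 7.47 ± 0.818 and Pecam1 at 6.87 ± 0.484 (SD, n = 4). Pdgfrb had 4.74 ± 0.683, Cdh5 3.79 ± 0.812, Tagln 3.78 ± 0.936, Acta2 3.75 ± 0.323 and Kdr 2.26 ± 0.212 CPM per kilobase. The order of the means was the same in NC cortex, where Vtn stood at 35.6 ± 6.30, Cldn5 at 35.2 ± 6.46, Rgs5 at 12.4 ± 1.84, Flt1 at 8.09 ± 0.649 and Pecam1 at 6.36 ± 0.505. Below them in NC came Pdgfrb at 4.67 ± 0.762, Cdh5 at 3.37 ± 0.282, Tagln at 2.90 ± 0.591, Acta2 at 2.82 ± 0.550 and Kdr at 2.25 ± 0.298 CPM per kilobase. In LNA218 the libraries of neighbours overlapped between Vtn and Cldn5, along Rgs5, Flt1 and Pecam1, and along Pdgfrb, Cdh5, Tagln and Acta2. In NC they overlapped between Vtn and Cldn5 and along Cdh5, Tagln, Acta2 and Kdr. Flt1 was above Kdr in every library of both groups. Lengths are those of 1 annotated transcript per gene, so these levels are approximate.

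Other genes of the same cells did not pass either. Of 28 further endothelial genes 17 were higher and 11 lower, with a median log2 fold change of 0.094. Slco1c1, a thyroid hormone transporter of the barrier, averaged 50.8 ± 7.97 CPM in LNA218 and 43.1 ± 4.59 CPM in NC (SD, n = 4). It differed by 0.23 ± 0.10 (log2 ± SE), the only one of the 28 at an unadjusted p under 0.05, against 1.7% of all genes. Its highest libraries were LNA218 of mice 34 and 36, at 54.99 and 59.79 CPM. Sox18, an endothelial transcription factor, differed by 0.27 ± 0.12 and Itm2a by 0.22 ± 0.12. Of 14 further pericyte genes 5 were higher and 9 lower (median -0.013). Anpep, the aminopeptidase CD13 of pericytes, was higher in 4 of 4 animals, at 4.398 ± 0.407 CPM in LNA218 and 3.24 ± 0.846 CPM in NC (SD, n = 4), and differed by 0.47 ± 0.20 (log2 ± SE). Higd1b, a pericyte marker, differed by -0.38 ± 0.28, and Ifitm1 by 0.32 ± 0.27, both at low counts. None of these genes passed (edgeR quasi-likelihood, adjusted p = 0.999 for each).

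Further smooth muscle genes had a lower median than Acta2 and Tagln. Of 13 tested, 8 were higher and 5 lower, with a median log2 fold change of 0.090 and 0 at an unadjusted p under 0.05. The 3 with the smallest p were Tpm2 at 0.28 ± 0.21, Casq2, the calcium store protein calsequestrin, at 0.38 ± 0.29 and Crip1 at 0.25 ± 0.22 (log2 ± SE). Myh11, the smooth muscle myosin heavy chain, named after its values were seen, had 3.44, 2.56, 5.79 and 3.11 CPM in LNA218, against 4.35, 3.25, 3.55 and 4.28 CPM in NC. It was higher in mouse 35 alone and differed by -0.10 ± 0.24 (log2 ± SE).

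Barrier, junction and adhesion genes had medians close to 0. Of 15 genes of the Wnt and Norrin pathway that maintains the barrier 8 were higher and 7 lower (median 0.018). The smallest p belonged to the co-receptor Lrp5 at 0.24 ± 0.14, Fzd4 at 0.20 ± 0.13 and the transcription factor Lef1 at 0.27 ± 0.17 (log2 ± SE). Lef1 was high in a single library, LNA218 of mouse 36, at 13.84 CPM, against 6.36 to 7.98 CPM in every other library. Of 16 junction and basement membrane genes 10 were higher and 6 lower (median 0.044). F11r, a junctional adhesion molecule, averaged 10.0 ± 1.93 CPM in LNA218 and 7.83 ± 0.647 CPM in NC (SD, n = 4) and differed by 0.34 ± 0.14 (log2 ± SE). Its highest libraries were LNA218 of mice 34 and 36, at 12.45 and 10.53 CPM. The collagen gene Col4a2 differed by -0.17 ± 0.10 and was higher in 0 of 4 animals, and the laminin gene Lamb2 by 0.21 ± 0.13. Of 5 tested genes of leukocyte adhesion and vessel inflammation 4 were higher and 1 lower (median 0.044). Vcam1, the adhesion molecule raised on inflamed vessels, differed by 0.12 ± 0.10, Lcn2 by 0.48 ± 0.31 and Ch25h by 0.04 ± 0.35 (log2 ± SE). None passed (edgeR quasi-likelihood).

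Markers of fibroblasts and of the choroid plexus had larger medians than the vessel genes. Fibroblasts of the meninges and vessel sheath, which also express Pdgfrb, were represented by 12 genes. All 12 genes were higher in LNA218, against 47.2% of all genes, with a median of 0.71. At an unadjusted p under 0.05 there were 10, all higher, against 1.1% of all genes, and 0 passed after adjustment. Their summed level was 217.5 to 300.2 CPM in LNA218 and 141.6 to 205.7 CPM in NC. The 3 with the smallest p were Igf2, Slc13a4 and Dcn at 0.97 ± 0.17, 0.93 ± 0.18 and 0.78 ± 0.16 (log2 ± SE), and the largest fold change was that of Col3a1 at 1.18 ± 0.50. The mean difference of the 12 was 0.86, 1.04, 0.74 and -0.015 in mice 33 to 36. The value of mouse 36 is a mean of genes that went both ways, 5 higher and 7 lower, between 0.80 for Igf2 and -0.80 for Col3a1. Of the 12 genes 5 were higher in 4 of 4 animals, against 4.58% of all genes. The fibroblast list was chosen with earlier results of these data known, so the shares of all genes give no test of it. The part of fibroblasts in the mural values was not tested.

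The 7 tested choroid plexus genes were all higher, against 47.2% of all genes, with a median of 2.73. They summed to 25.4 to 2613 CPM in LNA218 and 24.2 to 85.5 CPM in NC. Their high libraries were LNA218 of mice 34 and 36 rather than 35, and Ttr, the transthyretin gene, made up 2445 of the 2613 CPM in mouse 34. The 3 with the smallest p were Otx2, Sostdc1 and Kcnj13 at 3.54 ± 0.64, 1.76 ± 0.32 and 2.55 ± 0.58 (log2 ± SE). Blood cell genes were lower in 6 of 6 cases, while 47.2% of all genes were above 0, with a median of -0.15. They summed to 30.7 to 144.9 CPM in LNA218 and 44.8 to 162.8 CPM in NC, lowest in both hemispheres of mouse 35. The 3 with the smallest p, Hbb-bs, Hba-a1 and Hbb-bt, differed by -0.19 ± 0.12, -0.15 ± 0.17 and -0.15 ± 0.18 (log2 ± SE). By animal, the mean difference of the 6 blood cell genes was -0.17, 0.050, -0.50 and -0.032 in mice 33 to 36. Of these 6 genes 0 were lower in 4 of 4 animals, against 4.05% of all genes. The choroid plexus and blood cell lists were also chosen with earlier results of these data known, so their counts are a description. The part of residual blood or of choroid plexus in the vessel genes was not tested.

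Parenchymal markers differed less. Medians were 0.060 for 5 microglial genes (3 higher), among them P2ry12 at -0.34 ± 0.28 and Cx3cr1 at -0.16 ± 0.13 (log2 ± SE). For 5 astrocyte genes the median was 0.018 (3 higher), with the smallest p for Gfap at 0.18 ± 0.11, Aqp4 at -0.12 ± 0.20 and Aldh1l1 at 0.07 ± 0.15. For 5 neuronal genes it was -0.075 (1 higher), with the smallest p for Rbfox3 at -0.13 ± 0.10, Snap25 at -0.12 ± 0.12 and Slc17a7 at -0.08 ± 0.11. For 5 oligodendrocyte genes it was 0.038 (4 higher), among them Mag at 0.07 ± 0.17 and Mbp at 0.04 ± 0.16. The summed astrocyte level was highest in the NC library of mouse 36, at 1631 CPM, against 1179 to 1490 CPM in the other 7 libraries. Neuronal genes summed to 5158 to 6110 CPM in LNA218 and 5730 to 6257 CPM in NC.

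The genes whose levels ran most closely with each class were sought among 11733 others. Over the 8 libraries the mean of the 5 endothelial genes was followed most closely by Eng, the endothelial co-receptor endoglin (r = 0.943), Ralb (0.943), Slc20a2 (0.935), Rhobtb1 (0.921) and Zfp395 (0.921). The mean of the 5 mural genes was followed by Itm2a (0.957), Fzd4 (0.928), Rab3il1 (0.901), Aldh1a2 (0.90) and Myorg (0.898). These are Pearson coefficients, given as a description over libraries that come in pairs from 4 animals. Each list is the top 5 of 11733 coefficients over 8 libraries, so high values can arise from the choice alone. Among the members, the median coefficient was 0.322 over the 10 endothelial pairs, 0.557 over the 10 mural pairs and 0.372 over the 25 pairs between the classes. The lowest within each class were below 0, at -0.444 and -0.394, so the members of a class did not all vary together. The highest within each class were 0.807 and 0.84. Pairs between the classes ran from -0.494 to 0.937, the highest being Pecam1 with Tagln. Of the genes that followed the mural mean, Itm2a was listed above as endothelial and Fzd4 as an endothelial receptor.

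In the authors' deposited table of LNA218 against NC, 0 of the 10 genes passed, as against 0.235% of its 14884 genes. In the authors' deposited table Acta2 stood at a log2 fold change of 0.42 (p = 0.00466, adjusted p = 0.219) and Tagln at 0.38 (p = 0.0104, adjusted p = 0.296). No source used here gives the terms of that model. Pecam1 and Cdh5 were at 0.20 each in the authors' deposited table, with Vtn at 0.16, Pdgfrb at 0.080, Flt1 at -0.051 and Rgs5 at -0.082. For 2 genes the sign in the authors' deposited table was opposite to that of the paired fit, namely Cldn5 at -0.20 and Kdr at -0.052. Both rest on the same libraries, so the 8 shared signs are not independent support.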

How the data were processed

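RNA from the injected cortex of 4 mice was sequenced in 8 libraries, 4 LNA218 and 4 NC. Per the submitters' processing notes, Salmon, edgeR and GRCm39 were used, versions and roles not being given. The authors deposited estimated counts per gene, 69.9% of them not whole (tolerance 1e-06), with library totals of 17409900 to 25154700. Natural log values, also deposited, equalled ln(CPM + 1) with TMM scaling to within 0.00303. The authors' deposited comparison lists for each gene the log2 fold change, the likelihood ratio (a score), and p-values before and after adjustment.

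Estimated counts were rounded, and edgeR's filterByExpr (minimum count 10) kept 14506 of 14884 genes. The test was edgeR 4.0.16's quasi-likelihood test (R 4.3.3, robust, TMM, Benjamini-Hochberg over all genes). It was also run on simulated counts. Those held no trend with GC content or length, so that run does not show how the test behaves under such a trend. The animal was a block because the labels give an LNA218 and an NC hemisphere of the same animal. Deviations of paired libraries correlated at 0.077, -0.61, 0.44 and 0.20 in mice 33 to 36. SEs came from the F statistic. Within-animal differences used log2 CPM with a prior count of 0.5. No 2 libraries agreed within sampling noise (lowest median chi-square 1.65, against 0.455).

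Transcript sequence, length and GC content came from GENCODE M21 (GRCm38) and were found for 98.0% of tested genes; no coordinates were carried over. The correction for GC content and length used splines with 5 degrees of freedom per library. Members and lists were chosen with earlier results of these data known. Named genes were the 10 members, the 3 with the smallest p in each further list, and the 5 most like each class; 2 genes this rule names are not reported here. Alternatives were no block, DESeq2 1.42.0 size factors or test, upper-quartile scaling, other filters, limma-voom (limma 3.58.1), a hemisphere term, the GC correction, a prior count of 2, and animals left out.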

Additional observations from a re-analysis of the deposited data

Results flagged for a closer look

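Of 36 sets of 4 values checked for a library far from the others (Dixon's test at its 95% critical value), 2 were past it, where chance gives about 1 in 20. The NC library of mouse 36 stood at 4.41 log2 CPM for Pecam1, apart from the other 3 NC libraries. The same library stood at a mean of 4.51 log2 CPM over the 5 mural genes, again above the other 3 NC libraries.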

How the results depend on the processing

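In 14 alternative fits, 0 of the 10 genes passed, with adjusted p between 0.840 and 1. The count over all genes, 0, became 13 with DESeq2's test, ranged from 0 to 12 when 1 animal was left out (12 without mouse 34) and was 13 without mice 34 and 36, a fit with few residual degrees of freedom; the cause was not tested. With no replicate block 0 genes passed, and Acta2 and Tagln stood at 0.41 and 0.39, so the pairing changed no call. All 10 genes kept their sign under DESeq2 size factors, upper-quartile scaling and both other filters. When 1 animal was left out, the log2 fold change ranged from -0.083 to 0.32 for Cldn5, -0.055 to 0.15 for Kdr, -0.078 to 0.15 for Pdgfrb and -0.33 to 0.029 for Rgs5, and thus changed sign. Kdr was -0.0090, -0.055 and -0.014 without mice 33, 34 and 35, and Pdgfrb was -0.078 without mouse 35. Without mice 34 and 36 Cldn5 was -0.12, Flt1 0.059 and Rgs5 0.11. Acta2 (0.28 to 0.55) and Tagln (0.23 to 0.52) stayed above 0 when any 1 animal was left out. The other genes ranged from 0.049 to 0.19 (Pecam1), -0.18 to -0.054 (Flt1), 0.040 to 0.23 (Cdh5) and 0.099 to 0.35 (Vtn). The median was -0.055 to 0.19 for the endothelial genes, below 0 without mouse 34, and 0.099 to 0.35 for the mural genes. The endothelial minus mural difference was -0.18 to -0.055. A hemisphere term gave a mural median of 0.34. Only mouse 35 had the inhibitor on the left, so that fit gives mouse 35 more weight than any other animal. Counts of 80.0 to 1847 per gene and library, and 4 animals, limit the precision.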
